A study of Rattus norvegicus with 15 samples.

Results

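Cultured rat spermatogonial stem cells, the self-renewing germ cells of the testis, were compared at 8 h and at 4 h after glial cell line-derived neurotrophic factor (GDNF) had been given back, in 6 of the 15 samples of the series. The samples were taken by their labels alone, 3 at each time. All groups came from enriched stem cells kept in a serum-free medium with GDNF for 1 month, and each group holds 3 independent cultures. The control group stayed in GDNF, the withdrawal group lost it for 18 h, and the remaining groups lost it for 18 h and then had it back for 2, 4 or 8 h. Total RNA was hybridised to single-colour rat expression arrays with 31099 probe sets, and values are the deposited intensities on a linear scale. The control, withdrawal and 2 h groups are used here to place the change from 4 h to 8 h. The question is how far the response had settled towards the level of cells that never lost the factor. Because RNA came from whole cultures, fewer cells of a type and less RNA per cell cannot be told apart.

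GDNF binds GFRA1 on the stem cell surface, and the pair activates the receptor tyrosine kinase RET. RET signals through SRC family kinases, PI3K and AKT, and through RAS and ERK. Signals of the ERK type switch on immediate early genes such as Fos, Egr and Jun family members without new protein synthesis, and these messages usually last for a short time because dual specificity phosphatases quench ERK and the transcripts are unstable. Later genes depend on the proteins made in the first wave. In spermatogonia, Bcl6b and Etv5 are transcription factors known to depend on GDNF.

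Between 4 h and 8 h, 1532 of 15856 tested probe sets (9.66%) differed in a linear model over all 15 arrays (limma, adjusted p under 0.05). Of these, 565 (3.56% of those tested) were higher at 8 h and 967 (6.1%) were lower. Most changes were small, with a median size of 0.35 on the log2 scale, and 35 probe sets rose and 22 fell by 2-fold or more. At an unadjusted p under 0.05, 3941 of the 15856 passed, both directions together. Counts of list members at that threshold, given below, stand beside this number. Taken by named gene, 961 of 9002 (10.7%) were called, 371 higher (4.12%) and 590 lower (6.55%), and the 3 arrays of one time did not overlap those of the other for 2803 genes (31.1%). The share of higher calls was 36.9%, and it was 47.3% after quantile normalization (714 higher and 795 lower), so the excess of falls was smaller on that scale. The count also rests on single arrays. It was 952 without 4 h replicate 1 (557 lower), 924 without 8 h replicate 2 (363 higher and 561 lower), and the higher calls were 372 without 8 h replicate 1.

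The distance from control was counted as well. Against control, 3430 probe sets (21.6%) were called at 4 h and 1953 (12.3%) at 8 h. Both comparisons share the control arrays, and the difference between those counts was not tested. With the mean of mesenchymal markers, described below, as a covariate they were 3092 and 2284. They were 2597 and 1944 without 4 h replicate 1, and 3280 and 1312 without 8 h replicate 1.

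A few measures of the arrays moved along with time. The mean of 14 tested mesenchymal or feeder cell markers (of 21 listed) was 7.75, 8.11 and 8.18 on the log2 scale at 4 h and 8.38, 8.5 and 8.27 at 8 h, so the groups did not overlap, and none of the 14 was at 0. The mean of the 3 germ cell markers with a probe set (of 9 listed) was 11.68 ± 0.0409 (SD, n = 3) at 4 h and 11.44 ± 0.0573 at 8 h. Of the 3, Sall4 was called and the others were not: Tex101 averaged 7156 and 7317 and Uchl1 5383 and 5255 at 4 h and 8 h. Means of Sertoli cell markers (7 of 14 tested) lay at 6.34 ± 0.0278 and 6.32 ± 0.0535. Of these, Clu was called higher (log2 change 0.19, adjusted p = 0.00433) and Wt1 lower (log2 change -0.59, adjusted p = 0.0234; up to 0.102 with single arrays left out). A single Leydig or peritubular marker and a single immune marker were tested, neither called. The 5S ribosomal RNA control probe set read 1444 ± 165 at 4 h and 1258 ± 29.8 at 8 h. The part of these measures in the results was not tested, apart from the fit with the mesenchymal mean as a covariate, which called 932 probe sets (436 higher and 496 lower). Replicate 1 at 4 h stood apart from its group, with the lowest mesenchymal mean and a value of -0.394 on the first component of variation within groups. It was not alone in this. Replicate 1 of withdrawal (-0.487) and of control (-0.323) also had the lowest value of their groups on that component.

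Probe sets that had responded early were then followed over the later interval. For this, 4 sets were taken from calls between the control, withdrawal and 2 h groups. The log2 changes behind these calls use no array of the 4 h or 8 h groups. Their spread was estimated from all arrays of the series, those of 4 h and 8 h included. The sets and the later calls are therefore not independent, and the part of this in the counts was not tested. Withdrawal against control called 1533 probe sets lower (9.67%) and 1809 higher (11.4%), and 2 h of GDNF against withdrawal called 1888 higher (11.9%) and 2249 lower (14.2%). Among transcripts raised in the first 2 h, calls were mostly falls. Of the 1888, 434 (23%) were lower at 8 h than at 4 h and 4 (0.212%) were higher, beside 6.1% and 3.56% of all probe sets, and their median log2 change was -0.14 beside -0.02 for all. Among those lowered in the first 2 h, calls were mostly rises. Of the 2249, 252 (11.2%) were higher at 8 h and 37 (1.65%) were lower, with a median of 0.06. Most members of both sets were not called, and 251 of the 1888 and 1554 of the 2249 had a positive change. The fall of the first set was called for 271 probe sets without 8 h replicate 2 and for 255 with the mesenchymal covariate, and the rise of the second for 163 without 8 h replicate 1 and for 163 without 8 h replicate 2. The few calls against these directions also moved. The 4 higher calls of the first set were 2 without 4 h replicate 1, 7 without 4 h replicate 2 and 8 without withdrawal replicate 3. The 37 lower calls of the second were 13 without 4 h replicate 1, 18 without 8 h replicate 2, 23 without 2 h replicate 1, 24 without withdrawal replicate 2 and 57 without 4 h replicate 2.

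The median level of each set relative to control was read as well. The sets lowered or raised by withdrawal were chosen on the control arrays that serve as baseline here. Those raised or lowered at 2 h were chosen on the withdrawal and 2 h arrays. The levels of the withdrawal sets at every time are therefore not independent of the choice. Nor are those of the 2 h sets after withdrawal and at 2 h. The part of this in the levels was not tested. The set raised at 2 h stood at 0.21 above control at 2 h, 0.13 above at 4 h and -0.02 at 8 h, and the set lowered at 2 h stood at -0.14, -0.09 and -0.03. The set lowered by withdrawal itself stood at -0.36 after withdrawal, -0.10 at 4 h and -0.12 at 8 h. In that set 163 members rose (10.6%) and 213 fell (13.9%) from 4 h to 8 h, and its median change was -0.02, the value of all probe sets. The set raised by withdrawal stood at 0.07 at 4 h and 0.05 at 8 h, with 97 members higher (5.36%) and 122 lower (6.74%). Its calls were 58 higher and 63 lower without 8 h replicate 2, and there were 59 lower without 4 h replicate 1, 79 lower without withdrawal replicate 1, 61 higher without 8 h replicate 1 and 64 higher without withdrawal replicate 2.

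**Figure D1:**
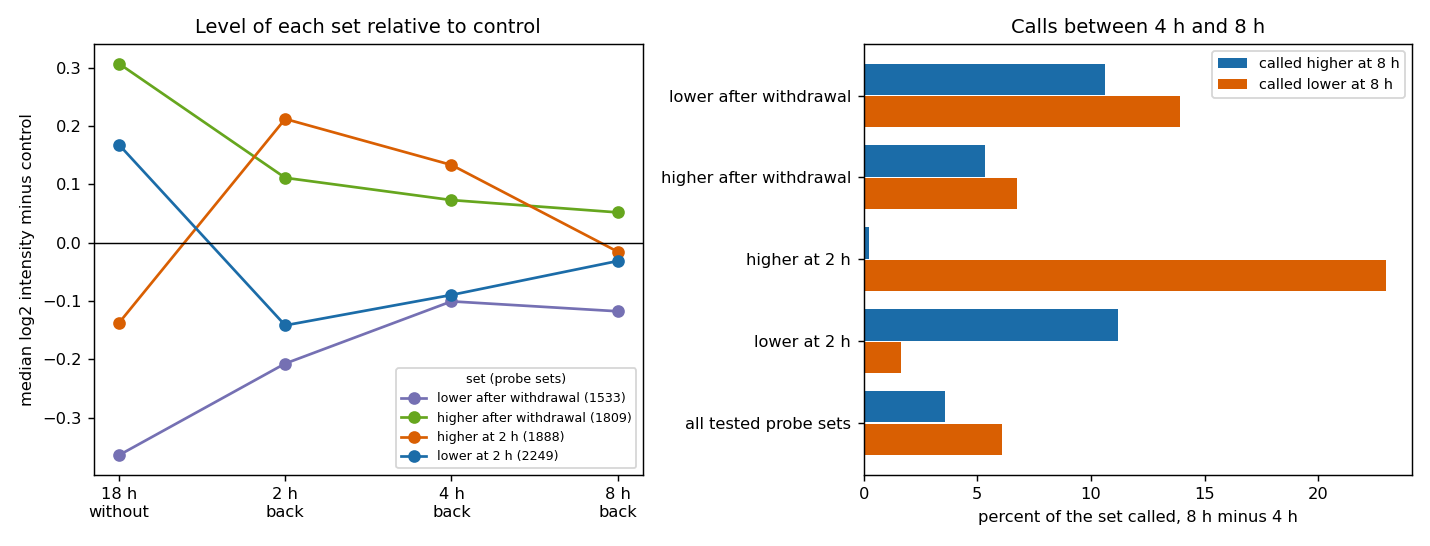
Left, median log2 intensity minus the control mean for the 4 sets of probe sets at withdrawal and at 2, 4 and 8 h of GDNF replacement. Right, the percent of each set, and of all 15856 tested probe sets, called higher (blue) or lower (orange) at 8 h than at 4 h. The set higher at 2 h has 23% of its members called lower, and the set lower at 2 h has 11.2% called higher.

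The set lowered by withdrawal split by what 2 h of GDNF had done to it, a division made after its values were seen. Of 112 probe sets that withdrawal had lowered and the first 2 h had lowered further, 50 (44.6%) were higher at 8 h than at 4 h and 2 were lower. These include Ret, Meox1, Gpd1l1, Prickle2, Flvcr2, Tor3a and Slc25a12. Of 591 that withdrawal had lowered and 2 h had raised, 3 were higher and 170 (28.8%) were lower, among them Sfn, Junb, Maff, Id1, Trib1, Sphk1 and Fhl2. Of 830 that withdrawal had lowered and 2 h had not called, 110 were higher and 41 lower. The comparisons that define these classes share the withdrawal arrays, and the arrays of 4 h and 8 h entered neither log2 change. The arrays of 4 h and 8 h did enter the spread behind every call, which was estimated from all arrays of the series. The classes and the later calls are therefore not independent, and the part of this in the percentages was not tested.

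**Figure D2:**
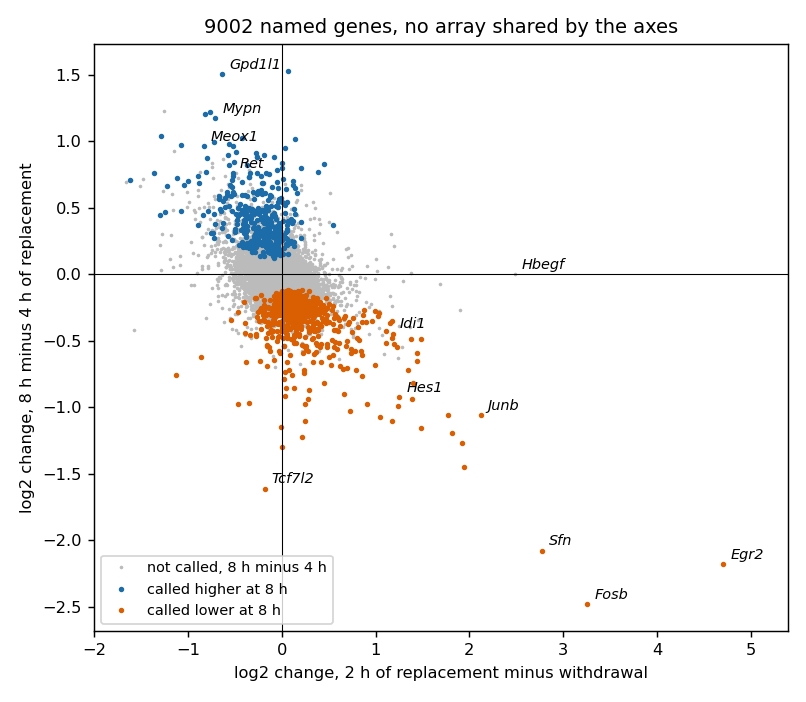
Each point is 1 of 9002 named genes, with its log2 change from withdrawal to 2 h of GDNF on the horizontal axis and from 4 h to 8 h on the vertical axis; blue and orange mark genes called higher or lower at 8 h. Egr2, Fosb and Sfn lie at the lower right, Hbegf lies near 0 on the vertical axis, and Mypn, Meox1 and Ret lie at the upper left.

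Many immediate early transcription factors fell. Of 20 tested members of 29 listed, 10 were lower at 8 h (Egr1, Egr2, Fosb, Fosl1, Junb, Jund, Klf10, Maff, Ier2 and Srf) and 1 (Jun) was higher, beside 6.55% and 4.12% of all named genes, and the list median was -0.40 beside -0.01. Leaving out single arrays gave 9 to 11 lower calls, and the call of Jun was lost without replicate 1 or 2 of either time. Stretches of promoters are shown for 4 of the members that fell, because they carry motifs bound by factors downstream of ERK and of cyclic AMP: the CArG box, the binding sequence of serum response factor (SRF), and the cyclic AMP response element TGACGTCA, bound by CREB and related factors. Capitals mark the motif. Sequences are from RefSeq on the assembly GRCr8, and the 3 of Egr1, Egr2 and Maff follow the naming rule, while Srf was added after its values were seen.
Egr1, chr18:26736959-26737018, plus strand, 119 to 60 bases before the start: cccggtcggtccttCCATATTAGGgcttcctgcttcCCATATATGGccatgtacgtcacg
Egr2, chr20:21054490-21054549, minus strand, 108 to 49 bases before the start: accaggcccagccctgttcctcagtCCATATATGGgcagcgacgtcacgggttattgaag
Srf, chr9:21923980-21924039, plus strand, 96 to 37 bases before the start: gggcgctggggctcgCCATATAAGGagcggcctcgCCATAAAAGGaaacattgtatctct
Maff, chr7:112792710-112792769, plus strand, 77 to 18 bases before the start: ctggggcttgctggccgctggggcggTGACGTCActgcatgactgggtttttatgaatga
In the 250 bases before the start, on either strand, a CArG box was found in 5 of the 14 list members with a promoter in the table (35.7%), against 1.5% of 27456 promoters, and the cyclic AMP response element in 3 of 14 (21.4%) against 1.7%. Among the 7648 tested genes with a promoter in the table these shares were 1.26% and 3.39%. The CArG box was in Egr1, Egr2 and Srf, which fell, and in Klf6 and Zfp36, which were not called (adjusted p = 0.114 and 0.113). The cyclic AMP response element was in Jund, Maff and Ier2, which fell. Neither motif was found for Fosb, Junb and Fosl1, which fell, nor for Egr4, Klf4 and Ier5, which were not called. Of the other motifs searched, the AP-1 motif TGACTCA was in 0 of the 14 and the ETS motif CCGGAAG in 1 (7.14%). The E-box CACGTG was in 2 (14.3%). Among the tested genes these shares were 2.93%, 17.8% and 9.32%. Among 491 genes called lower with a promoter, the CArG box was in 2.24% and the cyclic AMP response element in 5.09%. Among 320 called higher these shares were 1.25% and 0.938%. A match describes letters in the window and does not show binding.

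Egr2, a zinc finger factor of the EGR family, read 74.78, 72.27 and 116.4 at 4 h and 20.27, 18.04 and 18.42 at 8 h in replicates 1 to 3. All 8 h arrays were below all 4 h arrays, the ratio was 4.54 (log2 change -2.18, SE 0.23, adjusted p = 2.53e-05), and the 8 h mean of 18.91 ± 1.19 lay near the control mean of 16.23 ± 2.97. Its peak was earlier, at 330.4 ± 24.0 at 2 h. Egr1, its close relative, read 5299, 4753 and 4830 at 4 h and 3526, 3147 and 3213 at 8 h, again without overlap (log2 change -0.59, adjusted p = 5.08e-06), beside a control mean of 3595. Both fell from 2 h to 4 h as well (log2 change -1.94 for Egr2 and -0.30 for Egr1).

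Fosb, a partner of JUN proteins in AP-1, had the largest fall of the named genes. Its arrays read 635.6, 254.0 and 282.2 at 4 h and 117.2, 61.09 and 36.53 at 8 h, and the values at each time spread widely. The log2 change was -2.48 (SE 0.51, adjusted p = 0.0061), and it was -1.65 with the mesenchymal covariate (adjusted p = 0.0289). With that covariate Egr2 (-2.48), Sfn (-2.04) and Tcf7l2 (-1.91) fell further. Without 4 h replicate 1 the change of Fosb was -2.07, behind Egr2 (-2.28) and Sfn (-2.09). Fos itself read 2855, 2055 and 1529 at 4 h and 2036, 1344 and 1054 at 8 h, the groups overlapped, and the change of -0.55 was not called (adjusted p = 0.337). Junb, another AP-1 subunit, read 625.2, 615.8 and 697.2 at 4 h and 317.8, 299.4 and 311.5 at 8 h. That drop by 2.08-fold (adjusted p = 2.62e-05) left Junb at 309.6 ± 9.35 beside 253.1 ± 31.3 in control, a difference that was not called (adjusted p = 0.0994).

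Maff, a small MAF protein that pairs with other leucine zipper factors, read 331.8, 363.3 and 333.9 at 4 h and 158.8, 178.2 and 128.7 at 8 h (log2 change -1.16, SE 0.11, adjusted p = 6.36e-06). Its levels at 2 h and 4 h (305.2 ± 28.5 and 343.0 ± 17.6) were not called different (adjusted p = 0.318). Srf fell from 757.3 ± 83.6 to 572.1 ± 12.5 (adjusted p = 0.00218), beside 560.3 in control. Zfp36, Ier5, Klf2, Arc and Egr4 were among the members with no call, with log2 changes between -0.16 and 0.08. Klf4 and Klf6 were not called either, with larger changes of -0.40 and -0.45 (limma adjusted p = 0.0666 and 0.114). At an unadjusted p under 0.05 by limma, 15 of the 20 tested members were lower and 1 was higher.

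**Figure D3:**
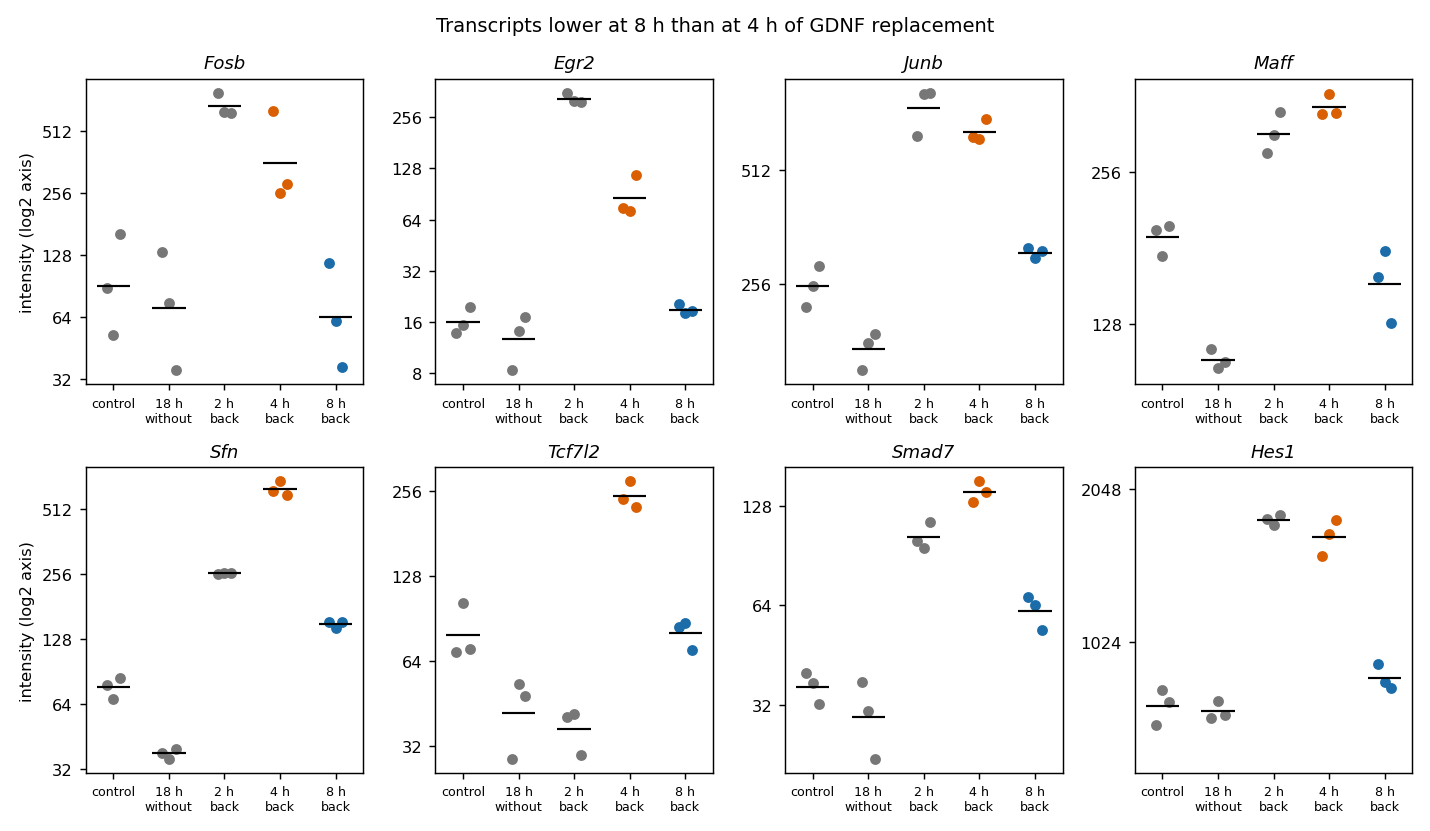
Intensity on a log2 axis of 8 transcripts in the 3 arrays of each of the 5 groups (points) with the mean of the log2 values (line); 4 h is orange and 8 h blue. Egr2 and Fosb were highest at 2 h, Sfn, Tcf7l2 and Smad7 were highest at 4 h, and every 8 h array lies below every 4 h array in all 8 panels.

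Other genes were higher at 4 h than at 2 h and then fell. Sfn encodes 14-3-3 sigma, an adaptor protein that binds phosphorylated partners. It read 623.3, 687.6 and 596.7 at 4 h and 153.4, 143.5 and 153.4 at 8 h, a drop of 4.23-fold with no overlap (log2 change -2.08, SE 0.09, adjusted p = 1.99e-09). From 257.5 at 2 h it had risen by 1.30 on the log2 scale to 4 h, and at 8 h it was still above the control mean of 76.55 (log2 change 0.98, adjusted p = 4.2e-06). Tcf7l2, a transcription factor of the Wnt pathway, read 239.3, 276.4 and 223.9 at 4 h and 84.68, 87.13 and 69.99 at 8 h, beside 37.26 ± 6.51 at 2 h and 80.58 ± 19.0 in control. It was above control at 4 h (adjusted p = 6.98e-05), and its fall from there was called (log2 change -1.61, adjusted p = 0.000197). Lef1, a factor of the same family, read 558.2, 429.8 and 416.1 and then 356.5, 317.3 and 322.2. Its fall (log2 change -0.48, adjusted p = 0.00457) was not called in a fit of the 6 arrays alone (adjusted p = 0.061). Tcf7l1, of the same family, was called higher (log2 change 0.60, adjusted p = 0.0116). That call was lost without 8 h replicate 2 (adjusted p = 0.0591), and a dimmer Tcf7l1 probe set was not called (adjusted p = 0.417). Of 14 tested Wnt and Notch genes 1 was higher and 3 were lower, beside 4.12% and 6.55% of all named genes.

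Sphingosine kinase 1 (Sphk1) and the LIM domain protein Fhl2 followed at low signal. Sphk1 read 28.34, 44.67 and 45.72 at 4 h and 17.27, 16.47 and 20.49 at 8 h (log2 change -1.10, adjusted p = 0.000713), and its rise from 2 h to 4 h was called (adjusted p = 2.26e-05), while that of Fhl2 was not (adjusted p = 0.135). Fhl2 was partly under the low-value level of 16 at 8 h, so its ratio of 2.41 became 2.11 when values under 16 were set to 16. The receptor kinase Epha2 fell from 411.0 ± 13.7 to 320.0 ± 4.85 and stayed above the control mean of 243.2. Of the 14 tested delayed early and second wave genes, 4 were lower and 2 (Emp1 and Timp1) higher. These counts stand next to 6.55% and 4.12% of all named genes. With single arrays left out they were 4 to 6 and 2 to 3. Sfn, Sphk1, Fhl2 and some others of that list were put on it because earlier results of these arrays showed them. The counts therefore do not describe such genes as a class. Hbegf, an EGF family growth factor from the same list, was not called and lay near the low-value level of 16. It read 16.12, 20.94 and 34.66 at 4 h and 23.24, 28.01 and 17.96 at 8 h, against 5.502 in control. With single arrays left out its log2 change ran from -0.25 to 0.30. With the mesenchymal covariate it was -0.58 (limma adjusted p = 0.0501).

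Large falls were also seen in Zhx2, a homeobox repressor, Adra2a, the alpha 2A adrenergic receptor, the pseudokinase Trib1 (2.74-fold) and the scaffold protein Frmpd1. Adra2a read 69.58, 75.2 and 83.02 at 4 h and 36.55, 34.6 and 26.78 at 8 h (log2 change -1.23, adjusted p = 1.75e-05), and it had been at 24.44 at 2 h. Zhx2 read 92.6, 106.3 and 71.87 and then 29.71, 50.22 and 31.99, below its control mean of 47.28 on 2 of 3 arrays. Both genes had risen from 2 h to 4 h (adjusted p = 0.0134 for Zhx2 and 7.02e-07 for Adra2a) and came down within the next 4 h. Frmpd1 fell with an adjusted p of 0.00454, which was 0.0509 in a fit of the 6 arrays alone.

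Brakes on the signal fell in part. Of 10 tested ERK feedback inhibitors 3 were lower at 8 h and none was higher (4 and 1 at an unadjusted p under 0.05), with a median of -0.17, beside 6.55% and 4.12% of all named genes. Dusp6, the phosphatase that acts on ERK in the cytoplasm, read 5273, 5225 and 5057 at 4 h and 4015, 4102 and 4015 at 8 h (log2 change -0.36, SE 0.04, adjusted p = 3.1e-05), and it remained above its control mean of 3685 (adjusted p = 0.0316). A dimmer probe set of Dusp6 had a change of -0.38 that was not called (adjusted p = 0.0844). Dusp2 and Dusp5 fell by 1.4-fold each (adjusted p = 0.0272 and 0.0419), but Dusp2 lost its call in 5 and Dusp5 in 11 of the 15 fits that left out 1 array, with adjusted p up to 0.121 and 0.13. The sprouty genes Spry1, Spry2 and Spry4 had log2 changes of -0.18, -0.15 and 0.20, none called.

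Among genes that answer TGF-beta or BMP signals, of 18 tested members 5 were lower (Id1, Smad7, Skil, Hes1 and Pmepa1) and Atoh8 was called higher, although both of its groups lie under 16 and no fold is given. Of all named genes, 6.55% were lower and 4.12% higher. Smad7, the inhibitory SMAD, read 131.9, 152.1 and 141.4 at 4 h and 67.99, 64.11 and 54.04 at 8 h (log2 change -1.20, SE 0.16, adjusted p = 0.000239), still above its control mean of 36.46. Hes1, a repressor known as a Notch target, read 1512, 1674 and 1782 at 4 h and 924.6, 854.5 and 829.4 at 8 h (log2 change -0.93, adjusted p = 7.55e-07), near the control mean of 768.1. Id1, an inhibitor of helix-loop-helix factors, fell from 603.0 ± 42.1 to 313.7 ± 20.9, while its relatives Id3 and Id4 had log2 changes of 0.03 and -0.04, not called. Skil, a repressor of SMAD activity, fell by 1.35-fold to 4501 ± 153, above 3471 in control.

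Most genes of the sterol pathway fell. Of 22 tested genes of sterol and fatty acid synthesis 13 were lower at 8 h and none was higher. Among all named genes, 6.55% were lower and 4.12% higher. At an unadjusted p under 0.05 the list had 17 lower and 0 higher, and its median change was -0.31. Leaving out single arrays gave 10 to 17 lower calls, and the mesenchymal covariate 9. Fdps, which makes farnesyl diphosphate, read 4765, 4562 and 4992 at 4 h and 3587, 3577 and 3701 at 8 h (log2 change -0.40, SE 0.03, adjusted p = 3.79e-06). Cyp51, the lanosterol demethylase, read 1877, 1880 and 1806 and then 1391, 1370 and 1383 (log2 change -0.42, adjusted p = 5.14e-06). At 8 h, 10 of the 22 were below control, beside 9.22% of all named genes. Fdps and Cyp51 were among them, where they averaged 4230 and 1649 (adjusted p = 0.000682 and 0.000536). Idi1, the isomerase of the mevalonate route, read 4104, 3607 and 3726 and then 2766, 2880 and 2728 (log2 change -0.45, adjusted p = 2.62e-05), after 5775 at 2 h; a second probe set of Idi1 had a change of -0.14 that was not called (adjusted p = 0.389).

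Stard4, a sterol carrier, fell from 493.7 ± 15.7 to 349.5 ± 8.93, and Insig1, which holds the sterol sensor in the endoplasmic reticulum, from 2417 ± 313 to 1575 ± 19.5. Ebp and Sc5d, enzymes of the late steps, did not follow: their log2 changes were 0.05 and 0.11. No match to the sterol element TCACNCCAC was found in the 250 bases before the start of the 16 list members with a promoter in the table, where 0.976% of all promoters hold it, which says only that these letters are not in these windows.

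**Figure D4:**
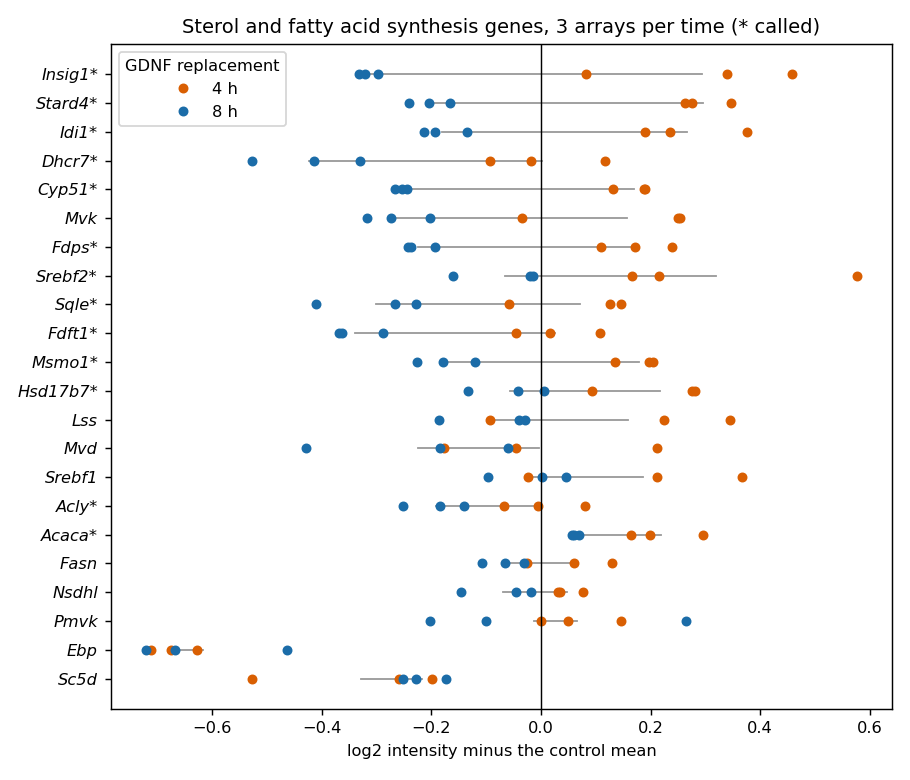
Log2 intensity minus the control mean of the 22 tested sterol and fatty acid synthesis genes, with each 4 h array (orange) and 8 h array (blue) as a point and a line joining the means; an asterisk marks a call between 4 h and 8 h. The 8 h arrays of Fdps, Cyp51 and Idi1 lie below 0 while their 4 h arrays lie above it.

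Ret, the GDNF receptor kinase, recovered. It read 1974, 1892 and 1930 at 4 h and 3278, 3296 and 3225 at 8 h, so every 8 h array was above every 4 h array, by 1.69-fold (log2 change 0.76, SE 0.04, adjusted p = 5.64e-08). Its level had gone from 4301 ± 235 in control to 2630 ± 64.9 at 2 h and 1932 ± 40.8 at 4 h, and at 8 h it was still below control (log2 change -0.40, adjusted p = 3.19e-05). A pair of dimmer Ret probe sets rose as well, by 0.42 and 0.41. Of 18 tested receptor and proximal signalling genes Ret alone was called higher, a share near the 4.12% of all named genes. Frs2, an adaptor of receptor kinases, was called lower by 1.12-fold (adjusted p = 0.038), while its dimmer probe set was called higher (log2 change 0.58, adjusted p = 0.0239), and the call of the brighter probe set was lost without any 1 of 5 of the 6 arrays compared (adjusted p up to 0.123).

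Other transcripts were also higher at 8 h after a low level at 2 h or 4 h. Mypn, the sarcomere protein myopalladin, read 191.2, 184.0 and 189.5 at 4 h and 418.8, 425.4 and 427.8 at 8 h (log2 change 1.17, SE 0.05, adjusted p = 4.21e-09), near the control mean of 445.0 ± 11.6. Unlike Ret, it had been raised by withdrawal, to 527.2 (adjusted p = 0.00402), before it fell to 322.2 at 2 h. Meox1, a homeobox factor, read 555.5, 546.9 and 532.9 at 4 h and 1015, 1125 and 1049 at 8 h (log2 change 0.96, adjusted p = 7.55e-07), below its control mean of 1440 (adjusted p = 0.000868), after 450.8 at 2 h. Gpd1l1, a relative of glycerol-3-phosphate dehydrogenase, read 72.37, 66.64 and 53.54 and then 173.0, 197.9 and 172.2, and control averaged 173.1. For all 3 genes the arrays of both times stood well apart, and Mypn and Gpd1l1 were not called against control at 8 h (adjusted p = 0.443 and 0.811).

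Further large rises were in Slc25a12, the mitochondrial aspartate and glutamate carrier, from 63.76, 92.4 and 90.14 to 161.6, 161.1 and 155.6 (control 163.1), and in the torsin family gene Tor3a, from 18.44, 18.47 and 18.73 to 37.01, 43.07 and 31.58 (control 57.7). Prickle2, of the planar polarity pathway, rose by 2.33-fold and the ubiquitin ligase Rnf125 by 2.05-fold. Rimkla, a ligase that joins glutamate to N-acetylaspartate, rose by 2.03-fold to a level above control (adjusted p = 0.000916), as did Gng2, a G protein gamma subunit (2.02-fold, adjusted p against control 0.0159). A dimmer probe set of Rimkla had a like change that was not called (adjusted p = 0.0696). Ccsap and Flvcr2 rose from 4 h values under 16, so with values under 16 set to 16 their ratios were 2.61 and 1.63. Arhgap6 was called as well (adjusted p = 0.0426), and its call was lost in 8 of the 15 fits without 1 array, with adjusted p up to 0.185. Its log2 change of 0.97 became 0.49 with the mesenchymal covariate (adjusted p = 0.228).

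**Figure D5:**
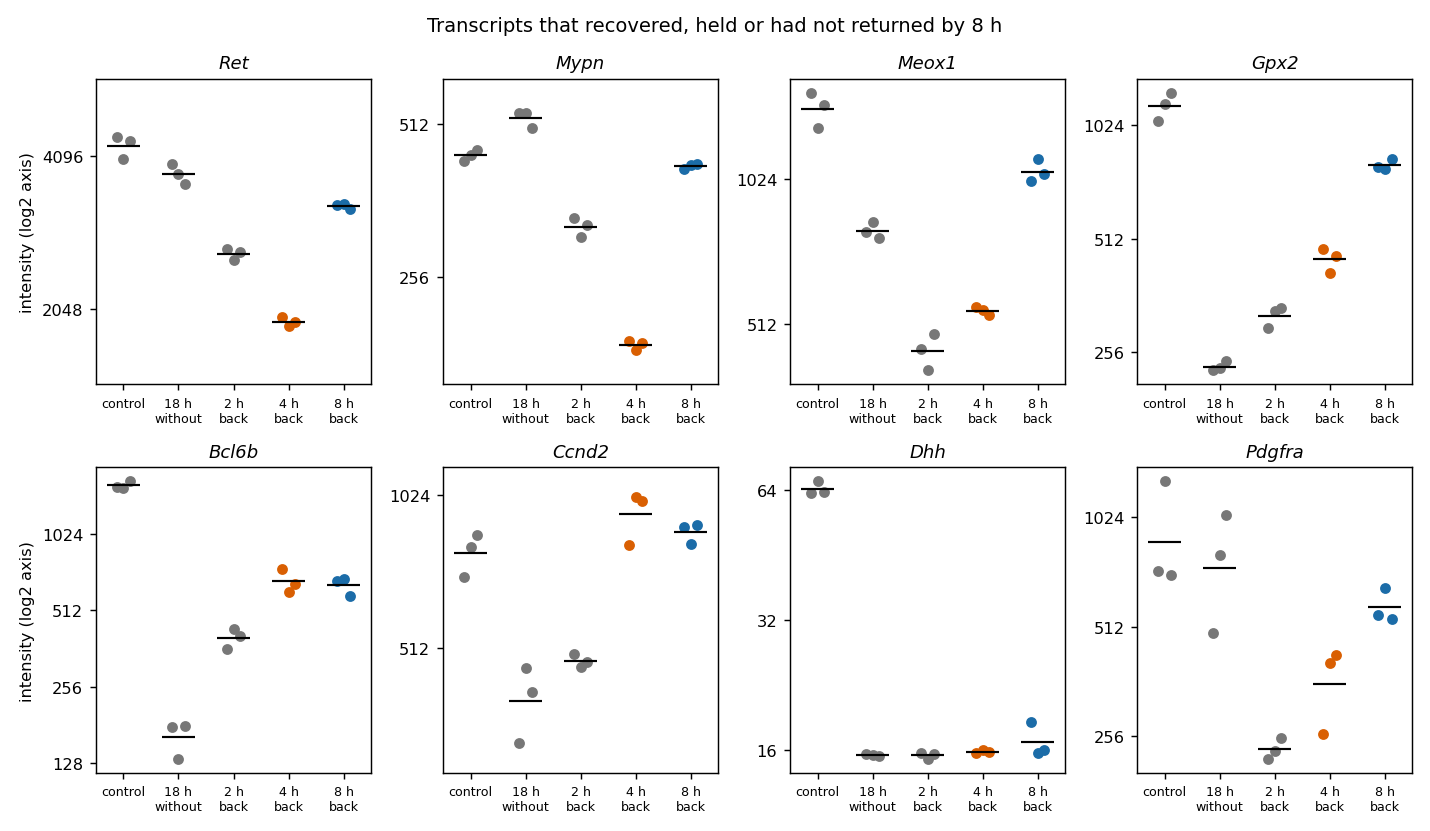
Intensity on a log2 axis of 8 transcripts in the 3 arrays of each of the 5 groups (points) with the mean of the log2 values (line); 4 h is orange and 8 h blue. Ret, Mypn, Meox1 and Gpx2 are higher at 8 h than at 4 h on all arrays, Bcl6b and Ccnd2 overlap between these times, Dhh stays near 16 in every group but control, and Pdgfra, a mesenchymal marker, rises without a call.

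Of 11 tested GDNF-tied genes 2 were lower at 8 h, the transcription factors Egr2 and Pou3f1, and none was higher (2 and 1 at an unadjusted p under 0.05), beside 6.55% and 4.12% of all named genes. Bcl6b and Etv5 were not called. Bcl6b had the deepest fall of the named genes on withdrawal, from 1588 ± 52.4 to 163.9 ± 26.4. It read 746.1, 606.6 and 652.8 at 4 h and 664.8, 682.1 and 583.3 at 8 h, so the groups overlapped (log2 change -0.05, SE 0.11, adjusted p = 0.818), and at 8 h it was below control by 1.31 on the log2 scale (log2 change -1.31, adjusted p = 2.46e-06). Etv5 averaged 754.0 ± 64.8 at 4 h and 729.4 ± 56.0 at 8 h, beside 765.9 in control. Etv4, Id4, Mycn, Cxcr4 and the cyclin Ccnd2 had log2 changes between -0.12 and 0.06, none called. Etv1 read 58.69, 76.39 and 81.59 at 4 h and 123.9, 145.5 and 138.9 at 8 h; the arrays did not overlap, but the change of 0.92 was not called over all 15 arrays (adjusted p = 0.128), was called in a fit of the 6 arrays alone (adjusted p = 0.0136) and was 0.21 with the mesenchymal covariate.

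Other genes lost on withdrawal took different courses. Gpx2, a glutathione peroxidase, read 481.4, 415.7 and 460.2 at 4 h and 791.1, 783.4 and 831.4 at 8 h (log2 change 0.83, SE 0.07, adjusted p = 3.59e-06) on its way from 234.4 after withdrawal to 1156 in control. Dhh, the desert hedgehog ligand, did not return: it read 15.76, 15.98 and 15.81 at 4 h and 18.61, 15.73 and 16 at 8 h, against 64.32 ± 2.27 in control. The endothelial nitric oxide synthase gene Nos3 averaged 242.3 in control and 54.63 after withdrawal, and read 134.9, 148.7 and 134.9 at 4 h and 164.4, 175.0 and 159.5 at 8 h, which did not pass the test (adjusted p = 0.177). Anxa3 likewise had a log2 change of 0.34 with no call (0.50 and adjusted p = 0.043 without 4 h replicate 2), and Fblim1 one of 0.78 (adjusted p = 0.0139; 0.0523 without replicate 1 of control, withdrawal and 4 h).

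Among 16 tested genes of undifferentiated spermatogonia 1 rose (Ret) and 3 fell, Sall4, Pou3f1 and Foxo1, beside 4.12% of all named genes higher and 6.55% lower. Sall4, a zinc finger factor of stem cells, read 983.6, 862.4 and 916.3 at 4 h and 562.3, 517.9 and 595.6 at 8 h (log2 change -0.72, adjusted p = 0.000131), beside 489.8 ± 52.4 in control. The POU factor Pou3f1, a GDNF-tied gene, read 264.4, 339.0 and 268.6 and then 194.9, 189.3 and 177.7 (log2 change -0.63, adjusted p = 0.00471), beside 163.6 in control. Foxo1 was called at an adjusted p of 0.0419, and that call was lost without 7 of the 15 arrays in turn, with adjusted p up to 0.177. A dimmer probe set of Foxo1 had a change of -0.41 that was not called (limma adjusted p = 0.262). None of 6 tested genes of differentiating and meiotic germ cells was called by limma, and 1 had an unadjusted p under 0.05.

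FOXO targets, which PI3K and AKT signals repress, were split, with 3 of 28 higher and 5 lower, beside 4.12% and 6.55% of all named genes. The highest rise was that of Cdkn1b, a CDK inhibitor, from 65.62, 75.39 and 79.56 to 98.66, 129.5 and 100.9 (log2 change 0.57, adjusted p = 0.00407; 0.0528 in a fit of the 6 arrays alone). Ddit4, a repressor of mTORC1, fell from 1348 ± 43.6 to 985.0 ± 49.1 (adjusted p = 1.77e-05), and Gadd45b fell from 276.8 ± 10.7 to 202.9 ± 8.03. Foxo3, among the genes withdrawal raised most, had come down by 4 h and read 278.6, 247.8 and 261.1 at 4 h and 245.7, 237.0 and 226.1 at 8 h, not called. Bik, a pro-apoptotic BCL2 family member raised to 560.7 by withdrawal, read 146.8, 125.2 and 140.5 at 4 h and 201.0, 176.2 and 161.5 at 8 h (adjusted p = 0.0213, and 0.0933 without 8 h replicate 1, 0.0756 without 4 h replicate 2 and 0.0563 without 8 h replicate 2). The counts of the FOXO list were 1 higher and 3 lower without 8 h replicate 2, 1 and 4 without 4 h replicate 2, and 2 and 3 without 4 h replicate 1.

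Cytoskeletal targets of SRF fell in part, with 6 of 20 lower (Srf, Actg1, Vcl, Zyx, Fhl1 and Fhl2) and none higher (7 and 2 at an unadjusted p under 0.05), beside 6.55% and 4.12% of all named genes, while the list median was 0.01. Zyx, the focal adhesion protein zyxin, read 791.1, 706.0 and 746.5 at 4 h and 495.3, 512.4 and 495.3 at 8 h (log2 change -0.58, adjusted p = 4.35e-05), against 492.9 in control. Vinculin (Vcl) read 643.3, 753.8 and 655.4 and then 448.3, 450.4 and 557.4 (adjusted p = 0.00133); of its other probe sets, one fell by 0.75 and a dim one by 0.33 that was not called. Actg1, cytoplasmic gamma actin, fell by 1.18-fold, and a dimmer probe set of the same gene had a change of 0.30 that was not called.

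Calls from 4 h to 8 h in the cell cycle lists were few, and none of these lists is read as apart from all named genes. Of 38 DNA replication genes 2 were higher and 1 lower, of 29 mitosis genes 2 were lower and none higher (9 and 0 at an unadjusted p under 0.05), and of 50 ribosome biogenesis genes 1 was higher and 2 lower. With single arrays left out these counts ran from 1 to 2 higher and 0 to 2 lower, from 0 to 3 lower, and from 0 to 1 higher and 2 to 3 lower. At 8 h, 15 of the 29 mitosis genes and 12 of the 38 replication genes lay below control, beside the 9.22% of all named genes. Of 15 G1 cyclins and CDK inhibitors 1 was higher (Cdkn1b) and 2 were lower. Of the CDK inhibitors, Cdkn1a fell from 360.3 ± 26.5 to 250.1 ± 22.0 and Cdkn1c from 155.0 ± 13.7 to 113.6 ± 5.6, both to near their control means of 236.1 and 112.3. A dim probe set of Cdkn1a had a change of -0.07 that was not called (limma adjusted p = 0.942). Of 23 glycolysis and hypoxia genes 3 were higher and 3 lower, and the higher calls were 0 without 4 h replicate 2, 8 h replicate 2 or 8 h replicate 3. The secreted peptide gene Adm fell from 127.0, 127.4 and 132.5 to 91.33, 92.96 and 73.18 (log2 change -0.60, adjusted p = 0.000919). None of 33 oxidative phosphorylation genes and none of 21 unfolded protein response genes was called by limma, where 3 and 1 had an unadjusted p under 0.05. These counts stand beside 4.12% of all named genes higher and 6.55% lower. Those at an unadjusted p under 0.05 stand beside 3941 of 15856 probe sets, both directions together.

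Mesenchymal marker genes were higher at 8 h in level, with little support gene by gene. Of 14 tested, 13 had a positive log2 change, the list median was 0.36, and Fbn1 alone was called (adjusted p = 0.0247; 0.108 without 8 h replicate 2, 0.0809 without 4 h replicate 2, 0.0635 without 4 h replicate 1 and 0.0614 without 8 h replicate 1). With single arrays left out the list had 0 to 5 higher calls, with 5 without withdrawal replicate 1; it had 4 with a replicate block, 3 with array weights and 0 with the mesenchymal covariate, whose values are those of the list itself. A dimmer probe set of Fbn1 had a change of 0.32 that was not called (limma adjusted p = 0.069). Pdgfra, a receptor of mesenchymal cells, read 260.7, 407.7 and 428.9 at 4 h and 550.0, 654.5 and 537.2 at 8 h (log2 change 0.70, adjusted p = 0.105). It had the largest fall among named genes from withdrawal to 2 h. Meis1, Hoxa5 and Zfhx4, which also fell most at 2 h, had log2 changes of 0.71, 0.66 and 0.71 that did not pass the test either. Without withdrawal replicate 1, Hoxa5 and Zfhx4 were called (adjusted p = 0.0369 and 0.0495). With the mesenchymal covariate the changes of Meis1, Hoxa5 and Zfhx4 were 0.18, 0.01 and 0.12.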

How the data were processed

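RNA of 15 cultures was measured on single-colour arrays. The deposited table holds 1 column of linear probe set intensity per sample, a scale read from its range. GCRMA and Partek 6.3 are the tools listed, per the submitters' processing notes, with settings and roles not given in the sources used here. GCRMA models background from the bases of each probe, which weighs most on dim probe sets. Values were moved to log2 and not normalized again. Control probe sets (57) were set aside. Testing needed a log2 of 4 or more (16 as intensity) on 3 or more of the 15 arrays, met by 15856 of 31099 probe sets (51%). Between 50.2% and 50.5% of probe sets reached 16 on each array.

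The model was fitted in R 4.3.3 by lmFit of limma 3.58.1, followed by eBayes allowing the variance to follow intensity, with 1 spread estimated from all 15 arrays and two-sided p-values adjusted by Benjamini-Hochberg within each comparison. A call means an adjusted p under 0.05. Each SD comes from the 3 intensities of a group, or from log2 values where the sentence says so, and each SE belongs to a log2 change. Arrays give no read depth; their number limits the precision. Gene names came from the platform annotation, checked by gene ID against a RefSeq table of GRCr8 (a single symbol was given for 20832 probe sets, of which 20764 matched, several for 436 and none for 9831). A gene is its tested probe set with 1 symbol and the highest mean, 9002 in all. Genes without such a probe set are not analysed here.

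Gene lists, marker lists and the genes named were chosen with earlier results of these data known. The naming rule took the 12 largest rises and 12 largest falls among calls whose arrays do not overlap and whose higher group is at 16 or more, without symbols that are a locus number alone; all tested GDNF-tied genes and Ret; up to 4 called members of each list, or 2 with none called; and the 6 genes with the largest change in each comparison that chose a set. Other list members are named for their place on a list, after their values were seen. The fit was tested on simulated data in which 200 of 15856 probe sets were changed. For 8 h against 4 h it recovered 46%, 82%, 98% and 100% of log2 changes of 0.25, 0.5, 1 and 2, with 8 false calls. Fewer probe sets were changed there than the 1532 called in the data, so these rates may not carry over. Alternatives were other filters and a floor, centring, quantile normalization, no trend, array weights, fewer arrays or probe sets, a replicate block and a marker covariate. Tables were made in Python 3.11.15.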

Additional observations from a re-analysis of the deposited data

Results flagged for a closer look

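The hybridization spikes, bacterial control transcripts added to every sample and used in no comparison, were brighter at 4 h and 8 h than in control. Their mean over 9 probe sets on the log2 scale was 10.8 ± 0.0625 (SD, n = 3) at 4 h and 11 ± 0.0553 at 8 h, beside 10.52 ± 0.197 in control. Withdrawal lay at 10.77 ± 0.165, about the 4 h level, and the 2 h group at 10.59 ± 0.123, where its arrays overlapped those of control. The arrays of 4 h and 8 h did not overlap. The part of this difference in the results was not tested.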

How the results depend on the processing

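Of 107 genes named by rule 80 were called. Of these, 50 kept the call under every alternative tried, 30 lost it under at least 1 and 0 reversed, while 7 of the 27 uncalled became called and 8 changed sign. The cause was not tested for any of the changes below. Calls from 4 h to 8 h numbered 1061 with no low-value filter, 1987 with array weights, 932 (496 lower) with the mesenchymal covariate, 1001 (579 lower) without replicate 1 of control, withdrawal and 4 h, and 892 (363 higher and 529 lower) with the 6 arrays alone. The share of higher calls was 36.9% as reported, 41.8% with arrays centred on their medians and 47.3% after quantile normalization. The deviations of same-numbered arrays of 4 h and 8 h correlated at 0.033, -0.034 and -0.069. On the first component within groups, replicate 1 was below 0 in every group. Its values were -0.323 in control, -0.487 after withdrawal, -0.106 at 2 h, -0.394 at 4 h and -0.04 at 8 h. Correlations between 4 h and 8 h alone cannot show whether same-numbered cultures of all groups go together, which was not tested. A replicate block called 1667 (643 higher and 1024 lower). In that limma fit Pdgfra had an adjusted p of 0.0433, Foxo1 0.0517, Chaf1a 0.0501 and Mybbp1a 0.0526.

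The set raised by withdrawal (219 calls, 97 higher and 122 lower) had 125 (56 and 69) with no filter, 112 (64 and 48) without those 3 arrays, 72 (36 and 36) with the 6 arrays alone and 55 lower with the covariate. The set lowered by withdrawal (376) had 213 (100 and 113) with the 6 arrays alone. The set higher at 2 h (438, of which 434 lower and 4 higher) had 260 (255 lower) with the covariate and 277 (273 lower) with the 6 arrays alone, and its higher calls were 9 with centring, 8 after quantile normalization and 10 with array weights. The set lower at 2 h (289, of which 252 higher and 37 lower) had 183 (165 and 18) with no filter, 435 (78 lower) with array weights and 162 (144 and 18) with the 6 arrays alone, and its lower calls were 14 with the covariate and 12 without those 3 arrays. With the groups compared alone, 2025 probe sets were called against control at 4 h and 1241 at 8 h.

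With single arrays left out, the calls ran from 924 to 1655 (363 to 652 higher and 557 to 1017 lower). The set lowered by withdrawal ran from 267 to 382 (119 to 162 and 148 to 224) and the set raised by it from 121 to 210 (58 to 91 and 59 to 129). The set higher at 2 h ran from 276 to 473 (2 to 8 and 271 to 467) and the set lower at 2 h from 181 to 332 (163 to 304 and 13 to 57). Calls against control ran from 2597 to 3531 at 4 h and from 1312 to 2040 at 8 h.

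Changes that turned sign were all of uncalled genes. On the log2 scale Hbegf was 0.0115 with centring and Id4 0.0403 with array weights. With the covariate Bcl6b was 0.0072, Etv5 0.0764, Etv4 0.0148, Id4 0.0997, Fos 0.0338 and Fam120c -0.0662, and without those 3 arrays Bcl6b was 0.0286 and Etv5 0.0226. With single arrays left out Bcl6b ran from -0.1207 to 0.0286, Etv5 from -0.0957 to 0.0226, Id4 from -0.13 to 0.0898, Cxcr4 from -0.0493 to 0.1543, Hbegf from -0.2473 to 0.3047 and Fam120c from -0.0876 to 0.2113. Signal limits the dim genes, since values near 16 depend on the background model.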

Other observations

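Further gene groups are given beside 4.12% of all named genes called higher at 8 h than at 4 h and 6.55% called lower. Counts at an unadjusted p under 0.05 stand beside 3941 of 15856 probe sets, both directions together. In the BCL2 family 3 of 11 tested genes were higher (Bcl2l2, Bad and Bik) and Mcl1, a short-lived survival protein, was lower, from 7487, 8067 and 7425 to 6578, 6668 and 6242 (limma adjusted p = 0.00499), beside 6734 in control. Its second probe set had a change of -0.16 with an adjusted p of 0.0505. Bad had an adjusted p of 0.00707, which was 0.0517 in a fit of the 6 arrays alone, and Bcl2l2 one of 0.0379, which reached 0.153 when single arrays were left out. Without 8 h replicate 1 or 2 the higher calls of this family were 1.

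Of 20 heat shock genes 2 were lower (Bag3 and Dnaja1) and none higher (4 and 3 at an unadjusted p under 0.05 by limma). Bag3, a co-chaperone, fell from 315.0, 288.2 and 329.6 to 218.6, 209.9 and 211.4 (adjusted p = 0.000811). Hspa1a, which withdrawal had raised from 41.91 to 244.7, read 71.72, 68.1 and 68.81 at 4 h and 70.1, 44.19 and 44.91 at 8 h. The groups overlapped through 8 h replicate 1 alone, and the log2 change was -0.42 (adjusted p = 0.14), or -0.64 without that array (adjusted p = 0.0204). Dnaja1 had an adjusted p of 0.0368, which reached 0.12 when single arrays were left out. A dimmer probe set of Dnaja1 had a change of -0.02 that was not called (limma adjusted p = 0.817). Of 14 interferon and MHC class I genes 2 were lower (Isg20 and Psmb9), and both calls were lost when single arrays were left out, with adjusted p up to 0.142 and 0.164. Of 28 amino acid stress genes Chac1 was higher (adjusted p = 0.0136, and up to 0.0633 when single arrays were left out), and it had fallen from 48.28 after withdrawal to 18.95 at 2 h.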
